A study of Oryza sativa with 10 samples.

Results

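The broad H3K36me3 regions are stretches of at least 3000 bp in which every one of 5 rice genotypes had a called H3K36me3 peak. They were found by pooling the 5 H3K36me3 peak lists, joining peaks that shared 1 bp or more, and keeping the joined regions that held a peak of each list and spanned 3000 bp or more. Of 13113 joined regions, 6650 held peaks of all 5 lists, and 3410 of these were broad, which is 26.0% of all regions and 51.3% of the shared ones. The members were thus chosen by the positions and lengths of the H3K36me3 peaks, so the number of regions, their spans, their peak widths and their splitting are given as a description and carry no test. The other 3240 shared regions, all under 3000 bp, serve for comparison and are called compact here. The 5 genotypes are all Oryza sativa of the indica type: the first-generation hybrids of GL with 93-11 (GL×93-11) and of GL with TQ (GL×TQ), and the inbred parents GL (Guangluai-4), 93-11 (Yangdao-6) and TQ (Teqing), with no treatment named. Chromatin came from frozen second fully expanded leaves, taken when secondary branches were differentiating, and leaves of 3 plots were pooled for each genotype. There is 1 library per genotype and mark, so the differences between genotypes have neither a replicate spread nor a test, and genotype and library cannot be told apart. A leaf also holds many cell types, so more marked cells and more of the mark per cell cannot be told apart either.

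H3K36me3, trimethylation of lysine 36 on histone H3, is laid down along the body of a gene as RNA polymerase II transcribes it, and in plants it is a mark of transcribed genes. H3K27me3, the second mark of the series, is set by Polycomb group complexes and typically covers repressed genes. The H3K27me3 lists took no part in choosing the regions and are used below as an independent readout. Peak coordinates refer to the Nipponbare genome, a japonica variety. No gene annotation or sequence of that build was used here, so the regions are named by position only.

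The H3K36me3 libraries held between 37305130 and 49819855 unique mapped reads, the fewest in 93-11 and the most in TQ. Their peaks took 13.4% to 14.9% of these reads, in 9505 to 10136 peaks per list. The broad regions held close to 1 in 2 of all tags in peaks: 46.3% in GL×93-11, 50.1% in GL×TQ, 52.3% in GL, 45.1% in 93-11 and 47.7% in TQ. A tag is 1 mapped read counted in a peak.

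The 3410 broad regions covered 12.1 Mb and were close to each other in size. Their size was limited on both sides. The rule set the lower limit of 3000 bp, and the longest peak anywhere in a list was 4348 bp (93-11) to 4401 bp (TQ). Whether this common upper limit belongs to the mark or to the peak calling was not tested. Their median span was 3512 bp, with the 10th percentile at 3103 bp and the 90th at 4015 bp. By class, 1656 regions (48.6%) spanned 3000 to under 3500 bp, 1378 (40.4%) spanned 3500 to under 4000 bp, and 356 (10.4%) spanned 4000 to under 4500 bp. Only 6 regions spanned 4500 to under 5500 bp and 14 were longer. The threshold fell within the bulk of the shared regions, whose median span was 3023 bp, so it divides a continuous range. Just inside it, 3 regions of exactly 3000 bp began at 18139220 on chromosome 1, and at 7101151 and 35348883 on chromosome 3. Just outside it, regions of 2999 and 2998 bp began at 30910455 on chromosome 4, at 16085256 on chromosome 1 and at 5780669 on chromosome 4.

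**Figure D1:**
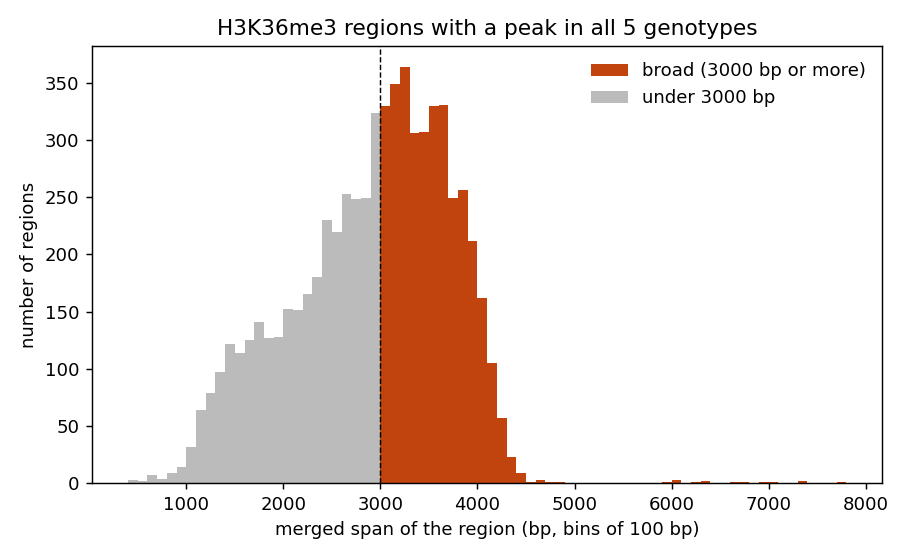
Number of H3K36me3 regions with a peak in all 5 genotypes (vertical axis) by merged span in bins of 100 bp (horizontal axis), with broad regions in red, compact regions in grey and the 3000 bp threshold dashed. The distribution runs through the threshold without a gap, the median broad span is 3512 bp, and almost no region exceeds 4500 bp. No single peak of any list is longer than 4401 bp.

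Long regions were shared more often than short ones. Among the 5926 joined regions of 3000 bp or more, 57.5% held all 5 genotypes, against 45.1% of the 7187 regions under 3000 bp. The long regions that were not shared by all held 4 lists in 828 cases, 3 in 591, 2 in 497 and 1 in 600. A longer region offers more bases to be met by a peak, and this was not separated from the presence of the mark. In turn, the span runs over the peaks of all lists, so a region with peaks of more lists tends to be longer by construction. Span and sharing are both part of the rule, so these shares are a description only.

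Broad regions were nearly always single peaks. In 3374 of the 3410 regions (98.9%, 95% Wilson interval 98.5% to 99.2%) each of the 5 lists had exactly 1 peak, and in compact regions the share was 99.1%. In the remaining 36 regions at least 1 list had 2 peaks, and no list had 3 or more in any region. The number of broad regions with 2 peaks was 21 in GL×93-11, 21 in GL×TQ, 20 in GL, 18 in 93-11 and 20 in TQ, so that the lists divided about equally often.

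The 36 divided regions fell into 2 kinds. In 11 of them all 5 lists had 2 peaks, and the gap between the peaks of a list was 26 to 1612 bp, with a median of 592 bp over 55 gaps. They are pairs of neighbouring peaks, joined because a peak of one list overlapped the neighbouring peak of another. In the other 25 the lists disagreed: 12 were divided in 1 list, 8 in 2, 3 in 3 and 2 in 4. The 45 gaps there were narrower, 6 to 1073 bp with a median of 228 bp. Among the 12 regions divided in a single list, that list was GL in 5, GL×93-11 in 3, GL×TQ in 2, 93-11 in 2 and TQ in 0. In 3 of the 25 every undivided list had its peak over both peaks of the divided lists, in 4 every undivided list covered only one of them, and in 18 both situations occurred.

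The widest regions were such pairs. The widest of all lay on chromosome 3 from 8735793 to 8743534, a span of 7742 bp, with 2 peaks in every list. Its level, in tags per kb of peak per 1000000 unique mapped reads of the library, was 6.85 in GL×93-11, 6.995 in GL×TQ, 7.25 in GL, 7.14 in 93-11 and 6.76 in TQ. These values lay close together, with a coefficient of variation (CV, the SD of the 5 levels as a percent of their mean) of 2.84%. Of the 10 widest regions, 9 were divided in every list, and their spans ran down to 6276 bp on chromosome 5 from 715836 to 722111. The longest single peak in a broad region was much shorter, 4214 bp in GL×93-11, 4335 bp in GL×TQ, 4379 bp in GL, 4188 bp in 93-11 and 4298 bp in TQ.

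The exception among the 10 widest lay on chromosome 1 from 4977924 to 4984629, a span of 6706 bp. GL×93-11, GL and 93-11 each had 2 peaks there, and GL×TQ and TQ had only the peak at higher coordinates. That shared peak was 3629 bp long in GL×93-11, 3663 bp in GL×TQ, 3694 bp in GL, 3501 bp in 93-11 and 3445 bp in TQ. The additional peak at lower coordinates held 659 tags over 2985 bp in GL×93-11, against 654 tags over 2819 bp in GL and 319 tags over 1346 bp in 93-11. Thus GL×93-11 had a peak that both its parents had, and GL×TQ lacked a peak that GL had and TQ did not. An H3K27me3 peak covered 1201 bp of this region in GL and 1230 bp in TQ, and none reached it in the other 3 genotypes.

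On chromosome 1 from 81269 to 87298, a span of 6030 bp, the GL list alone had 2 peaks. All 5 lists had a peak at the lower coordinates, with 641 tags in GL×93-11, 595 in GL×TQ, 673 in GL, 552 in 93-11 and 711 in TQ. The additional GL peak was 3255 bp long with 936 tags and a score of 52.6, close to the lowest score in the GL list, 50.01. The score is 10 times the negative log10 of the p-value that the peak caller MACS gave, so the peak lay just above the calling limit.

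In 5 broad regions no base was under peaks of all 5 lists, since the peaks of different lists lay at different ends of the region. On chromosome 7 from 17267385 to 17273443, GL×93-11, GL×TQ and TQ had both peaks, GL had only the peak at lower coordinates (2429 bp, 649 tags) and 93-11 only the peak at higher coordinates (3648 bp, 818 tags). Both hybrids thus held the peak that the GL list lacked, and GL×93-11 also held the one that the 93-11 list lacked. On chromosome 8 from 24590612 to 24595266 the hybrids had 2 peaks each, GL had 1 peak of 3139 bp over the lower and part of the higher one, 93-11 only the peak at lower coordinates, and TQ only the one at higher coordinates. The other 3 such regions lay on chromosome 1 from 35081179 to 35084524, on chromosome 6 from 17821189 to 17824249, and on chromosome 12 from 21172855 to 21176122.

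The stretch covered by all 5 lists, the core, had a median length of 2844 bp and took a median of 81.8% of the span (77.8% in compact regions). The core itself reached 3000 bp in 1250 regions (36.7%). A single peak of 3000 bp or more was present in all 5 lists in 1390 regions (40.8%), in 4 lists in 462, in 3 in 378, in 2 in 380 and in 1 list in 631. In 169 regions (4.96%) no single peak reached 3000 bp and the span came from peaks at different positions.

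Width differed between the lists. The median width of peak in a broad region was 3118 bp in GL×93-11, 3196 bp in GL×TQ, 3360 bp in GL, 2991 bp in 93-11 and 3197 bp in TQ. Peak width reached 3000 bp in 62.0% of the regions in GL×93-11, 67.4% in GL×TQ, 85.7% in GL, 48.8% in 93-11 and 68.2% in TQ. In broad regions GL was thus the widest list and 93-11 the narrowest. The regions were kept by their joined span, so a wide list could bring a region in, and the part of this in these contrasts was not tested. Of all peaks of a list, 32.8% in GL×93-11, 35.0% in GL×TQ, 37.4% in GL, 31.4% in 93-11 and 36.3% in TQ reached 3000 bp. Median widths in compact regions were 2014.5 bp in GL×93-11, 1982.5 bp in GL×TQ, 2158 bp in GL, 1826 bp in 93-11 and 2004 bp in TQ. The GL list set the outer start of the region in 54.1% of cases, against 12.1% for GL×93-11, 13.3% for GL×TQ, 6.48% for 93-11 and 17.6% for TQ, with ties counted for each list. The innermost start was that of 93-11 in 51.2%. The 93-11 library was also the one with the fewest reads, while TQ had more reads than GL (49819855 against 47720307) and narrower peaks in broad regions. The part of depth in width was not tested.

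In GL×93-11 the width lay between or at those of its parents in 2096 regions, above both in 416 and below both in 898, and the median difference from the parents' mean was -49 bp. In GL×TQ it lay between or at them in 1528 regions, above both in 494 and below both in 1388, and the median difference was -75.5 bp. Compact regions differed for GL×93-11, with 725 above both parents, 612 below both and a median difference of 14.5 bp. For GL×TQ they had 487 above, 1319 below and a median of -55.75 bp. The GL parent often set the span by which broad regions were kept, and the part of this choice in the hybrid widths was not tested.

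The summit, the base with most tags in a peak, was most frequent on either side of the centre in broad regions. In GL×93-11, for example, the 5% steps centred at 22.5%, 47.5% and 72.5% of the peak length held 9.51%, 4.59% and 9.45% of the summits. Over the 3374 regions with 1 peak per list, summits fell in the middle 20% of the peak in 20.2% for GL×93-11, 20.4% for GL×TQ, 16.5% for GL, 22.8% for 93-11 and 20.4% for TQ. In compact regions this stretch held 37.1% to 39.9%, and an even spread along the peak would put 20% there. Over the 5 lists together it held 55.7% under 2000 bp, 34.3% at 2000 to under 2500 bp and 25.5% at 2500 to under 3000 bp. In the broad range it held 20.0% at 3000 to under 3500 bp, 20.4% at 3500 to under 4000 bp and 18.9% at 4000 bp or more. The share thus fell along the span and did not change sharply at 3000 bp. The median distance from the summit to the nearer edge was 898 bp in GL×93-11, 910 bp in GL×TQ, 912 bp in GL, 865 bp in 93-11 and 899.5 bp in TQ. Summits stood at either side about equally: the 40% of the peak at lower coordinates held 40.5% of them in GL×93-11, 39.6% in GL×TQ, 42.1% in GL, 39.1% in 93-11 and 39.95% in TQ. The strand of the genes below was not used here, so the sides are those of the chromosome and not of a gene. All 5 summits lay within 200 bp in 33.7% of the broad regions and 49.4% of the compact ones. They lay more than 1500 bp apart in 95 broad regions (2.82%) and 10 compact ones (0.312%).

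**Figure D2:**
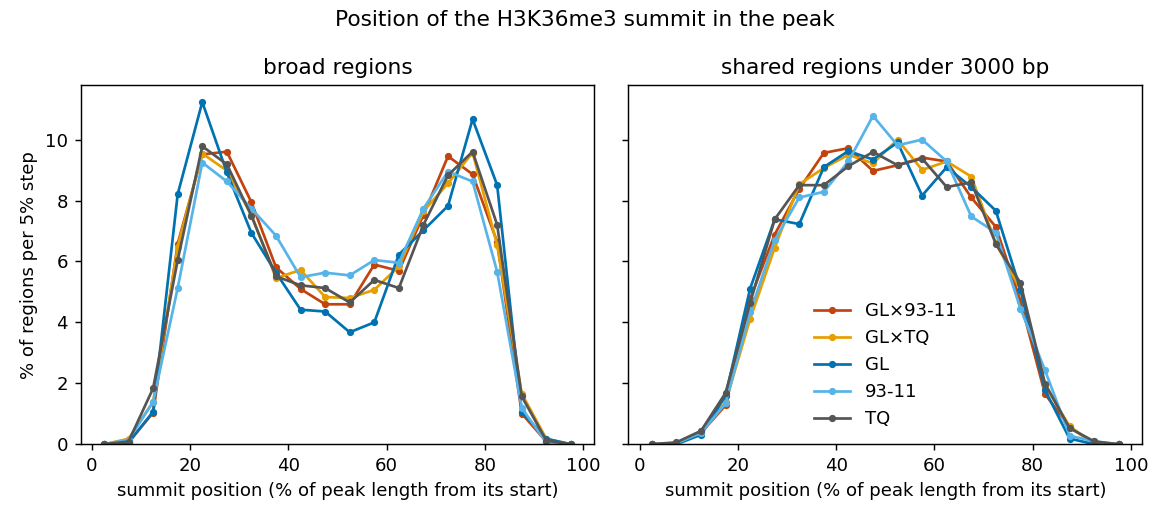
Position of the H3K36me3 summit along the peak, from 0% at its start to 100% at its end (horizontal axis), and percent of regions in each 5% step (vertical axis), for broad (left) and compact (right) regions with 1 peak in every list; each line is 1 genotype. Broad regions have 2 maxima, in the steps centred at 22.5% or 27.5% and at 72.5% or 77.5%. The middle 20% holds 16.5% to 22.8% of their summits, and compact regions have a single central maximum.

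The level of H3K36me3 was higher in broad than in compact regions, while the fold enrichment was lower. The median level in broad regions was 6.31 in GL×93-11, 6.19 in GL×TQ, 6.80 in GL, 6.42 in 93-11 and 6.28 in TQ. In compact regions it was 4.95 in GL×93-11, 4.67 in GL×TQ, 5.24 in GL, 4.81 in 93-11 and 4.64 in TQ. The median fold enrichment over the local background of the peak caller was 2.67 to 2.86 in broad regions, against 3.40 to 3.48 in compact ones. The median score was 166 to 189 in broad regions and 175 to 263 in compact ones. Both measures come from the same peaks as the rule, so these differences are a description. How the local background was estimated beside a wide peak was not tested.

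Level and fold moved in opposite directions along the whole range of span. Over shared regions under 2000 bp, the median level was 3.99 and the median fold 3.88. Over those of 3000 to under 3500 bp the level was 6.15 and the fold 2.87, and over those of 4000 bp or more the level was 6.84 and the fold 2.49.

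Per kb of each list's own peak, levels varied by a few percent between the genotypes. The CV over the 5 levels had a median of 5.76% in broad regions and 7.78% in compact ones, and its 90th percentile was 11.0% and 15.3%. Per kb of merged span the median CV was 8.99% in broad regions and 12.8% in compact ones. A CV of 20% or more was seen in 26 broad regions (0.762%) and 97 compact ones (2.99%). Broad regions also hold more tags, a median of 716 (93-11) to 1097 (GL) per region, and counting error is smaller there.

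The broad region of highest median level lay on chromosome 9 from 13179922 to 13183704, with levels of 10.2 in GL×93-11, 9.57 in GL×TQ, 10.3 in GL, 10.1 in 93-11 and 9.47 in TQ. The lowest lay on chromosome 8 from 2035583 to 2038646, with 3.64 in GL×93-11, 3.08 in GL×TQ, 2.90 in GL, 3.48 in 93-11 and 2.86 in TQ. No genotype's level at the lower region reached any level at the higher one. The most even region lay on chromosome 2 from 4562808 to 4566363, where the levels were 7.32 in GL×93-11, 7.26 in GL×TQ, 7.34 in GL, 7.31 in 93-11 and 7.35 in TQ (CV 0.485%).

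The region of highest CV (29.6%) among those with 1 peak in every list lay on chromosome 3 from 25637483 to 25640484. Its level was 5.68 in GL×93-11 (95% Poisson interval 5.26 to 6.13), 4.20 in GL×TQ (3.82 to 4.60), 6.98 in GL (6.55 to 7.43), 3.65 in 93-11 (3.19 to 4.16) and 3.76 in TQ (3.42 to 4.13). GL was highest, both other parents were low, and the hybrids lay between their parents. The peak was also wider where the level was higher, 3002 bp in GL against 1644 bp in 93-11 and 2360 bp in TQ. The region on chromosome 8 from 22107893 to 22111605 showed the same order, with 5.23 in GL×93-11, 3.80 in GL×TQ, 5.87 in GL, 3.31 in 93-11 and 3.49 in TQ.

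At the other 3 regions of highest CV, TQ was the lowest parent. On chromosome 5 from 22537143 to 22540388 the level was 6.99 in GL×93-11 (6.47 to 7.54), 4.17 in GL×TQ (3.72 to 4.66), 6.80 in GL (6.39 to 7.22), 7.08 in 93-11 (6.48 to 7.72) and 4.38 in TQ (3.96 to 4.83). GL×93-11 thus stood at the level of both its parents, and GL×TQ at the level of TQ, with a log2 ratio of -0.42 to its parents' mean. On chromosome 10 from 3931755 to 3935273 the levels were 5.65 in GL×93-11, 4.06 in GL×TQ, 5.96 in GL, 4.80 in 93-11 and 3.07 in TQ, and the TQ peak was 890 bp long with 136 tags. On chromosome 7 from 13511845 to 13515086 they were 6.40 in GL×93-11, 4.66 in GL×TQ, 6.99 in GL, 5.74 in 93-11 and 3.66 in TQ. In all 5 regions GL×TQ was lower than GL×93-11.

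**Figure D3:**
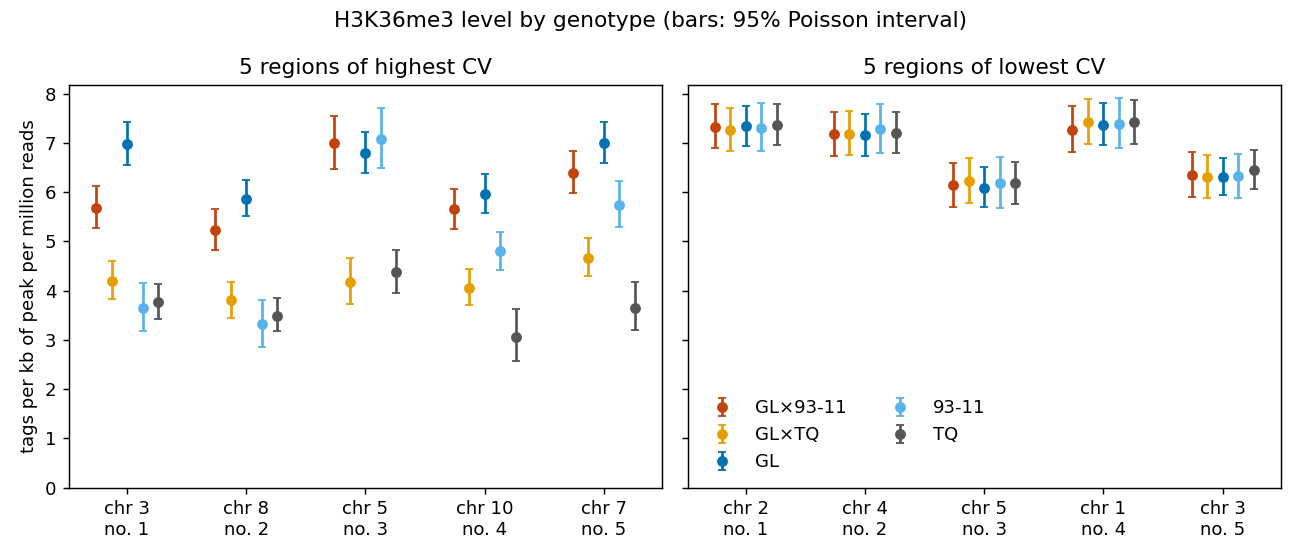
H3K36me3 level in tags per kb of peak per 1000000 reads (vertical axis) in the 5 genotypes at the 5 broad regions of highest CV (left) and of lowest CV (right), numbered in order of CV extremity and marked by chromosome; points are single libraries and bars are 95% Poisson intervals for counting error. At the left GL is high in all 5 regions and TQ low, with GL×TQ under GL×93-11; at the right the intervals of all 5 genotypes overlap.

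Between parents, the number of broad regions past 1.5-fold depended on the scaling, few per kb of each list's own peak and more per kb of the merged span. Per kb of peak, GL exceeded 93-11 by over 1.5-fold in 29 of 3410 broad regions (0.850%), beside 2.17% of the 7505 joined regions with a peak in both. GL was lower by over 1.5-fold in 8 (0.235%), beside 0.386%. GL exceeded TQ in 33 (0.968%), beside 2.69% of 7879, and was lower in 4 (0.117%), beside 0.178%. TQ exceeded 93-11 in 5 (0.147%), beside 0.254% of 8252, and was lower in 12 (0.352%), beside 0.557%. On this scale no broad region passed 2-fold in any pair. Per kb of the merged span, which also counts differences in width, GL exceeded 93-11 in 379 broad regions (11.1%), beside 17% of all, and was lower in 34 (0.997%), beside 1.88%. GL exceeded TQ in 210 (6.16%), beside 13.6%, and was lower in 40 (1.17%), beside 1.92%. TQ exceeded 93-11 in 94 (2.76%), beside 3.66%, and was lower in 41 (1.20%), beside 1.95%. On either scale the share of broad regions was under that of all joined regions in each of the 6 directions. Broad regions hold more tags per region than compact ones, and the joined regions include some that are missing from other lists. The part of counting error and of the rule in these lower shares was not tested. The median log2 ratio per kb of peak was 0.070 for GL over 93-11, 0.11 for GL over TQ and -0.038 for TQ over 93-11, and per kb of merged span it was 0.24, 0.19 and 0.054 for the same pairs, so that no direction is read for TQ over 93-11. The pairs share libraries, so their counts are not independent of each other.

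Per kb of each list's own peak, neither hybrid passed 1.5-fold against the mean of its parents in any broad region. No parent pair passed 2-fold there, so a hybrid level at or between those of its parents could not pass 1.5-fold. A count could thus only come from a level outside both parents. GL×93-11 had 0 regions higher and 0 lower, beside 0% of the 7183 joined regions with peaks in the hybrid and both parents, and GL×TQ had 0 and 0, beside 0% of 7462. Per kb of merged span, GL×93-11 was higher in 11 (0.323%), beside 0.794%, and lower in 24 (0.704%), beside 1.04%, and GL×TQ was higher in 2 (0.0587%), beside 0.0804%, and lower in 52 (1.52%), beside 3.46%. Per kb of peak, the log2 ratio to the parents' mean ran between -0.44 and 0.33 in GL×93-11 and between -0.46 and 0.29 in GL×TQ, and 99.7% and 99.4% of the regions lay within 1.25-fold. Its median was -0.069 in GL×93-11 and -0.072 in GL×TQ. Scaled by the tags in all peaks of a list in place of the mapped reads, the median became -0.049 in GL×93-11 and 0.047 in GL×TQ, so no direction is read for GL×TQ.

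The largest departure of GL×TQ downwards lay on chromosome 1 from 40329685 to 40332786. Its level was 5.86 in GL×93-11, 4.28 in GL×TQ (3.94 to 4.64), 5.83 in GL, 5.65 in 93-11 and 5.93 in TQ, so that GL×TQ was below all other genotypes. The peak was 3028 bp long in GL×TQ against 1337 to 1609 bp in the other lists, and its tags were the most of all, 583 against 328 to 435. The lower level there is one of more tags over a longer peak. H3K27me3 covered 1220 to 1562 bp of this region in the 5 genotypes. The largest departure of GL×93-11 downwards, on chromosome 3 from 10354801 to 10358476, was of the same kind, with a level of 5.07 over a peak of 3573 bp in GL×93-11 against 7.41 over 1787 bp in GL and 6.32 over 1710 bp in 93-11.

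The largest departure of GL×93-11 upwards lay on chromosome 6 from 26903112 to 26906544. Its level was 5.45 in GL×93-11, 4.57 in GL×TQ, 3.61 in GL, 5.06 in 93-11 and 4.67 in TQ, which puts the hybrid above both its parents. Here the GL peak was the wide one, 3433 bp against 2436 to 2570 bp in the other 4 lists.

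The hybrids lay between their parents where the parents differed most. At the 37 broad regions where GL and 93-11 differed by over 1.5-fold, GL×93-11 was between them in 37, at a median of 40.3% of the way up from 93-11 to GL. GL×TQ, which has no 93-11 parent, also fell between these values in 36 of the 37. At the 37 regions where GL and TQ differed, GL×TQ was between them in 33, at a median of 34.4% of the way from TQ to GL, and GL×93-11 was between the same values in 34. The count was thus about as high for the hybrid that is not the offspring of the pair as for the one that is.

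A comparison that sets the shared parent GL aside takes the ratio of GL×93-11 to GL×TQ beside the ratio of 93-11 to TQ, with no library in both. Over the 3410 broad regions Pearson's r between the log2 ratios was 0.28, and over compact regions 0.24. With levels per kb of the merged span it was 0.32 and 0.27. The regions share 4 libraries and are not replicates, so r is given as a description.

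**Figure D4:**
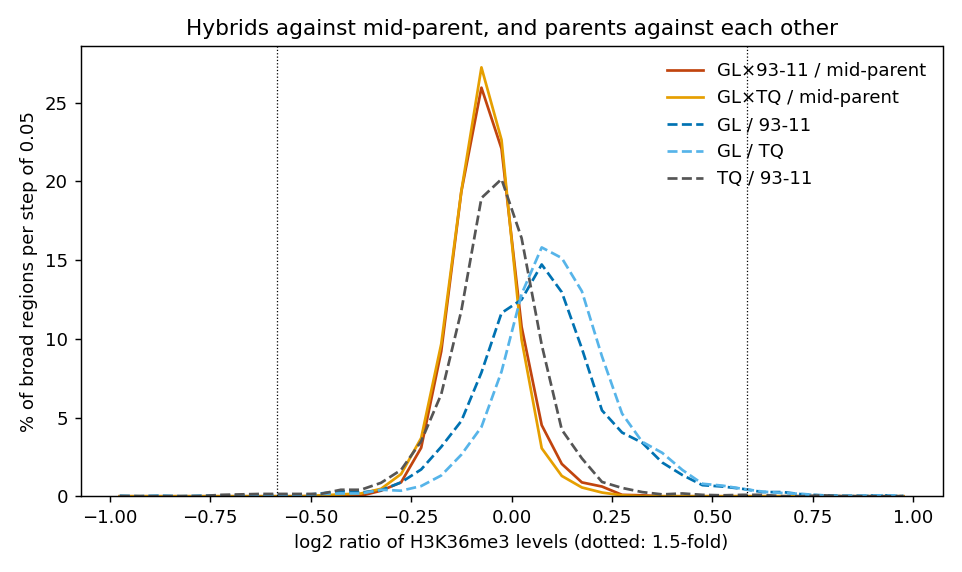
Distribution over the 3410 broad regions of the log2 ratio of H3K36me3 levels per kb of peak (horizontal axis, steps of 0.05) for each hybrid against the mean of its parents (solid) and for the pairs of parents (dashed), with the percent of regions per step (vertical axis) and dotted lines at 1.5-fold. Both hybrid distributions are narrow, with medians of -0.069 and -0.072, and stay within the dotted lines. The parent ratios with GL on top are wider, with medians of 0.070 and 0.11. A hybrid ratio divides by the mean of both parents and a parent ratio by a single library, so their widths are not like measures.

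H3K27me3 was scarcer over broad than over compact H3K36me3 regions in every genotype. A peak of the same genotype's H3K27me3 list met 112 broad regions in GL×93-11 (3.28%, Wilson 95% interval 2.74% to 3.94%), beside 6.94% of all joined regions with an H3K36me3 peak of that list. It met 115 in GL×TQ (3.37%, 2.82% to 4.03%), beside 6.32%, and 139 in GL (4.08%, 3.46% to 4.79%), beside 8.85%. It met 126 in 93-11 (3.70%, 3.11% to 4.38%), beside 6.53%, and 111 in TQ (3.26%, 2.71% to 3.91%), beside 6.41%. In compact regions the shares were 9.14% in GL×93-11, 8.49% in GL×TQ, 10.3% in GL, 9.44% in 93-11 and 8.67% in TQ. The difference of broad minus compact was -5.68 ± 0.437 percentage points (mean ± SD over 5 genotypes, lowest -6.26, highest -5.12), and the intervals of broad and compact regions did not overlap in any genotype. The intervals cover counting error only, and regions are not replicates of a genotype. The 5 differences come from the same regions, and the hybrids descend from the parents, so the SD is not a spread of independent values.

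**Figure D5:**
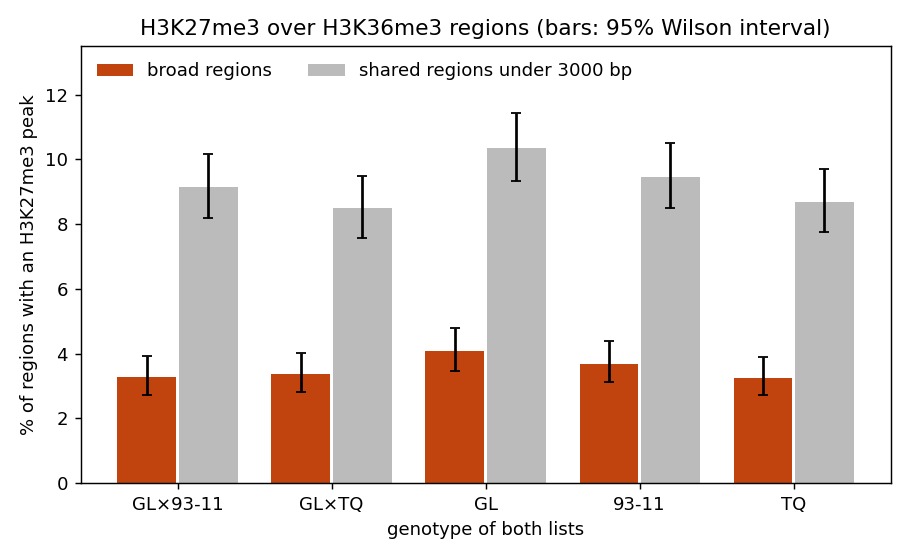
Percent of H3K36me3 regions met by an H3K27me3 peak of the same genotype (vertical axis) in broad (red) and compact (grey) regions for each of the 5 genotypes (horizontal axis), with 95% Wilson intervals. Broad regions lie between 3.26% and 4.08% and compact regions between 8.49% and 10.3%, with no overlap of the intervals within a genotype.

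Per base of region the difference was wider than per region. H3K27me3 peaks covered 8.27 bp per kb of broad span in GL×93-11, 7.77 in GL×TQ, 10.8 in GL, 8.34 in 93-11 and 7.95 in TQ, against 44.3 to 59.4 bp per kb of compact span. The share of regions with H3K27me3 in any genotype was 19.4% under 2000 bp, 13.8% at 2000 to under 2500 bp and 9.51% at 2500 to under 3000 bp. In the broad range it was 7.07% at 3000 to under 3500 bp, 5.66% at 3500 to under 4000 bp and 4.79% at 4000 bp or more. From 2500 bp upwards the Wilson intervals of neighbouring classes overlapped: 8.03% to 11.2%, 5.93% to 8.40%, 4.56% to 7.01% and 3.05% to 7.44%. The share thus did not change sharply at 3000 bp. With H3K27me3 in all 5 lists it was 2.16% at 2500 to under 3000 bp and 1.75% at 3000 to under 3500 bp.

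Where the marks met, H3K27me3 took a smaller part of broad than of compact regions. The median overlap in broad regions was 371.5 bp in GL×93-11, 372 bp in GL×TQ, 496 bp in GL, 325 bp in 93-11 and 357 bp in TQ, which is 9.49% to 15.0% of the span. In compact regions it was 1071.5 to 1294 bp, or 71.1% to 86.4% of the span. The H3K27me3 peak ran past the end of the broad region in 74.1% of cases in GL×93-11, 77.4% in GL×TQ, 72.7% in GL, 81.0% in 93-11 and 75.7% in TQ, against 59.6% to 66.6% in compact regions.

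H3K27me3 met 213 broad regions (6.25%) in at least 1 genotype and 58 (1.70%) in all 5, against 451 (13.9%) and 178 (5.49%) of the compact regions, and beside 12% and 3.46% of all 13113 joined regions. The next most frequent patterns were GL alone with 35 regions, 93-11 alone with 21, and all but GL with 11. By the study's supplement GL also had the most H3K27me3 peaks, and the part of this in the patterns was not tested. The median H3K36me3 level was 6.25 in the 58 regions with H3K27me3 in all 5 lists and 6.35 in the 3197 with none. These levels are close, with 10th to 90th percentiles of 4.42 to 7.26 and 4.82 to 7.54.

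A few broad regions carried both marks over nearly their whole length. H3K27me3 covered at least 90% of the span in all 5 genotypes in 4 broad regions, against 53 compact ones. One lay on chromosome 12 from 20631961 to 20635976, a span of 4016 bp, with 4016 bp under H3K27me3 in GL×93-11, 3865 bp in GL×TQ, 3972 bp in GL, 3842 bp in 93-11 and 3902 bp in TQ. Its H3K36me3 level was 8.52 in GL×93-11, 7.25 in GL×TQ, 7.38 in GL, 8.63 in 93-11 and 6.59 in TQ, above the broad median in every genotype. The other 3 lay on chromosome 6, from 15069413 to 15072494, from 15083014 to 15086602 and from 18059445 to 18062550, with median levels of 4.81, 5.12 and 3.88. Whether both marks sat on the same chromatin or in different cells of the leaf cannot be told apart.

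The hybrids mostly had H3K27me3 at broad regions where both parents had it, as they did over all joined regions. GL×93-11 had a peak in 70 of the 76 regions marked in both its parents (92.1%, 83.8% to 96.3%), and GL×TQ in 67 of 80 (83.8%, 74.2% to 90.3%). Of the regions marked in GL but not in the other parent, GL×93-11 had 12 of 63 (19.0%, 11.2% to 30.4%) and GL×TQ 15 of 59 (25.4%, 16.1% to 37.8%). Of those marked only in the other parent, GL×93-11 had 22 of 50 (44.0%, 31.2% to 57.7%) and GL×TQ 23 of 31 (74.2%, 56.8% to 86.3%). Where neither parent had a peak, GL×93-11 had 8 of 3221 and GL×TQ 10 of 3240. Over all joined regions the shares were 91.3% (both parents), 34.7% (GL only) and 45.1% (93-11 only) in GL×93-11. In GL×TQ they were 86.7% (both parents), 22.6% (GL only) and 57.9% (TQ only). The shares for both parents lay within the intervals of the broad regions, so they are not read as particular to broad regions. The same held for GL only in GL×TQ and for the other parent only in both hybrids. In GL×93-11 the share for GL only, 34.7%, lay above the broad interval of 11.2% to 30.4%, and the cause was not tested. Of the regions marked in GL but not in the other parent, 46 were common to both pairs and rest on the same GL library, so the hybrids are not independent of each other here. In the study's supplement, GL had the most H3K27me3 peaks, and the H3K27me3 precipitate of GL×93-11 had the lowest enrichment by PCR. The part of these library differences in the shares was not tested.

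Broad regions lay on all 12 chromosomes, most densely on chromosome 3 with 12.8 per Mb, counted up to the last peak, and least on chromosome 11 with 5.55 per Mb. The share of shared regions that were broad varied less, between 54.3% on chromosome 3 (51.0% to 57.6%) and 44.6% on chromosome 12 (39.7% to 49.5%). The median window of 1 Mb held 9 broad regions, and 3 of 366 full windows held 0. The densest, on chromosome 2 from 1000001 to 2000000, held 25, and 8 windows with 20 or more held 175 together. The median distance from a broad region to the nearest other H3K36me3 region was 5107.5 bp, against 5863.5 bp for compact regions, and to the nearest H3K27me3 region of any genotype 8661.5 bp, against 7338.5 bp.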

How the data were processed

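Chromatin of pooled leaves was precipitated with antibodies against H3K36me3 and H3K27me3 in 5 genotypes, 10 libraries in all. Per the study's methods, reads were filtered, mapped to Nipponbare with SOAP2 and called into peaks with MACS in each library; no build version is given in the sources used here, and no input control is named for the calling. The deposited lists hold tag counts per peak, the enrichment as a fold ratio, and a score that is the log10 of each p-value with its sign turned, times 10, all unchanged from the authors' peak caller. The score column has lost its heading and was read as such because its lowest value is 50.01 or 50.02 in each list.

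Peaks sharing 1 bp or more were merged over the 5 H3K36me3 lists. Levels are tags per kb of peak per 1000000 unique mapped reads, from the totals given with the paper. Named regions are the 10 widest, the 5 most unequally divided, the 5 highest and 5 lowest in level and in CV, the 3 highest and 3 lowest of each hybrid against the parents' mean, the 5 widest with H3K27me3 in all lists, and 3 on each side of the threshold; only some are printed. The regions without a common base and the 4 almost wholly under H3K27me3 were singled out after their values were seen, as were the span classes, the place of the hybrids between parents, the coverage per kb and the counts over all joined regions per kb of merged span. The members and lists were chosen with earlier results of these data known. No test was run, since each genotype has 1 library per mark. Intervals (95%) are Wilson for shares and exact Poisson for tags, for counting error only. Merging and counting were tested on simulated data. Alternatives covered the merging, the span, the score, the library total and the fold limit. Genes and sequence under the regions, reads by allele and expression were not analysed here. Scripts ran under Python 3.11.15 with pandas 2.3.3, numpy 2.4.6 and scipy 1.17.1, and figures were drawn with matplotlib 3.10.9.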

Additional observations from a re-analysis of the deposited data

How the results depend on the processing

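No paired analysis was possible because each genotype has 1 library per mark. The number of broad regions was 3369 to 3477 without any 1 of the 5 lists and 3409 to 4704 with a gap of up to 500 bp joined, an overlap of 100 bp required or a span of 2500 bp. It was 376 at 4000 bp, 2105 for peaks scored at least 100, and 1250 for the core of all 5 lists. The share with 1 peak in every list was 99.7% for peaks with a score of 100 or more, 95.2% at 4000 bp and 92.4% with gaps joined, which by construction adds divided regions. The median CV was 5.26% with tags in peaks as total, 8.99% per kb of merged span and 5.64% for peaks with a score of 100 or more.

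Per kb of merged span, which adds the differences in width, the regions past 1.5-fold against the parents' mean were 11 higher and 24 lower in GL×93-11, and 2 higher and 52 lower in GL×TQ. Between parents they were 379 higher and 34 lower for GL over 93-11, 210 and 40 for GL over TQ, and 94 and 41 for TQ over 93-11. With tags in peaks as total, GL over TQ had 16 higher and 7 lower. At a limit of 2-fold, per kb of peak with unique mapped reads as total, each parent pair had 0 in either direction. With tags in peaks as total, the median log2 ratio was -0.049 in GL×93-11 and 0.047 in GL×TQ against the parents' mean, 0.022 for GL over 93-11, 0.040 for GL over TQ and -0.018 for TQ over 93-11. Per kb of merged span these medians were -0.10, -0.11, 0.24, 0.19 and 0.054 in the same order. The sign thus turned for GL×TQ under the first and for TQ over 93-11 under the second, and the cause was not tested.

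With at least 500 bp under H3K27me3, the share of broad regions was 1.47% in GL×93-11, 1.44% in GL×TQ, 2.02% in GL, 1.35% in 93-11 and 1.44% in TQ, against 6.60% to 8.64% in compact regions. With H3K27me3 peaks of a score of 100 or more it was 1.85%, 2.08%, 2.82%, 2.46% and 2.14%, against 5.62% to 7.07%. The 93-11 library had the fewest reads and the narrowest peaks, and single libraries limit every comparison between genotypes.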
